A study of Homo sapiens with 48 samples.

Results

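The experiment described here is the time course of actinomycin D in control neuroblastoma cells, read as 2 intervals of equal length. It comprises the 24 libraries of the series whose titles give DMSO, out of 48 in all. Kelly and NGP are human neuroblastoma lines that the labels give as wild type and MYCN-amplified. The cells had been kept with DMSO, the solvent, for 3 or 6 days. Actinomycin D (10 µg/ml) followed, with cells taken at 0, 3 and 6 h, so every 3 h and 6 h library carries both agents and every 0 h library carries DMSO alone. Each of the 12 combinations of line, duration and time had 2 libraries, which makes 8 per time point. The other 24 libraries, treated alike but with 8 µM STM2457, an inhibitor of the m6A methyltransferase METTL3, are used at the end as separate samples of the same time course. The question was which transcripts lost most of their level in the first interval, which did so only in the second, and which rose before they fell.

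Actinomycin D binds DNA and stops RNA polymerases, so that after its addition the level of an mRNA is set mainly by its decay and by RNA still being processed. mRNAs of immediate early genes, of many transcription factors and of the histones made in S phase are known as short-lived, whereas those of ribosomal proteins and metabolic enzymes are known as long-lived. A transcript that decays at a constant rate loses the same amount on the log scale in 2 intervals of equal length.

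Levels are given as CPM, counts relative to library sizes that were scaled by the TMM method. The early change is the log2 change from 0 to 3 h and the late change that from 3 to 6 h, each over the 24 libraries with line and duration as covariates. The value called late minus early is their difference. It is above 0 where the late change was the higher one, as with a larger early loss or a larger late rise. It is below 0 where the late change was the lower one, as with a larger late loss or a rise that slowed. Early and late change share the 3 h libraries with opposite sign, so a deviation of those libraries alone would move them apart. The p-values come from the quasi-likelihood test of edgeR, adjusted by Benjamini-Hochberg over 15731 genes, and a gene was called at an adjusted p under 0.05. TMM scaling centres the typical gene near a change of 0. For this reason "rose" and "fell" below are relative to the typical mRNA of the same cells.

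The libraries held 11993189 to 21942238 fragments in genes. The share of the ERCC spike-ins, synthetic RNAs added to the samples, had a median of 0.319% at 0 h, 0.435% at 3 h and 0.520% at 6 h. The late step was not alike in all combinations. In Kelly of 3 days the share fell from 0.506 and 0.528% at 3 h to 0.452 and 0.449% at 6 h. It rose from 0.450 and 0.445% to 0.671 and 0.650% in Kelly of 6 days. In NGP it rose from 0.336 and 0.333% to 0.410 and 0.431% at 3 days, and from 0.401 and 0.426% to 0.589 and 0.594% at 6 days. Of 18 markers of catecholamine and neuroblast identity, 18 reached 1 CPM in all 0 h Kelly libraries and 15 in all 0 h NGP libraries. Of 19 mesenchymal and Schwann markers 8 and 9 did so. By library size alone the first list summed to 11920 to 12370 CPM in Kelly and 2684 to 2997 in NGP. The second summed to 199 to 368.1 and 453.1 to 597.3. The labels do not say whether the 2 libraries of a group came from separate cultures, and p-values measure only the spread between these samples. Both NGP libraries of 6 days and 6 h stood apart from the earlier times of the same cells. There, 29 amino acid response genes, a list written after these values had been seen, summed to 3396 to 3518 CPM, against 6602 to 6902 at 0 h and 6382 to 6510 at 3 h. The sums lay between 3023 and 3699 CPM in all other DMSO groups. The cause was not tested. Some results are also given without these 2 libraries, but the line and duration differences were not refitted without only them.

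More genes changed in the early than in the late interval. From 0 to 3 h 5769 genes were called (36.7% of those tested), 3053 higher (19.4%) and 2716 lower (17.3%). From 3 to 6 h 2623 were called (16.7%), 1242 higher (7.90%) and 1381 lower (8.78%). Late minus early differed from 0 in 1521 genes (9.67%), above 0 in 630 (4.0%) and below 0 in 891 (5.66%). Of the 891, 467 rose early with no called late change and 227 rose in both intervals. A further 79 rose and then fell, 108 fell in the late interval alone and 10 fell in both.

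The calls sorted genes into 5 patterns. In 619 genes the early change was below 0 and the late change less negative or above 0, called loss mostly early. Their median early change was −1.29 and their median late change −0.04, and the median level went from 40.9 CPM at 0 h to 15.7 at 3 h and 14.5 at 6 h. Delayed loss, a late fall larger than any early one, was called in 118 genes, with medians of 0.02 early and −0.56 late. An early rise followed by a late fall was called in 79 genes, with medians of 0.28 and −0.24. The reverse, a fall and then a rise, was called in 35 genes, 33 of them among those of early loss. A further 645 genes fell in both intervals with no called difference, with medians of −0.64 and −0.57. All genes tested had medians of −0.02 and 0.04. These values describe how the calls sort the genes and are no tests of the patterns.

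**Figure D1:**
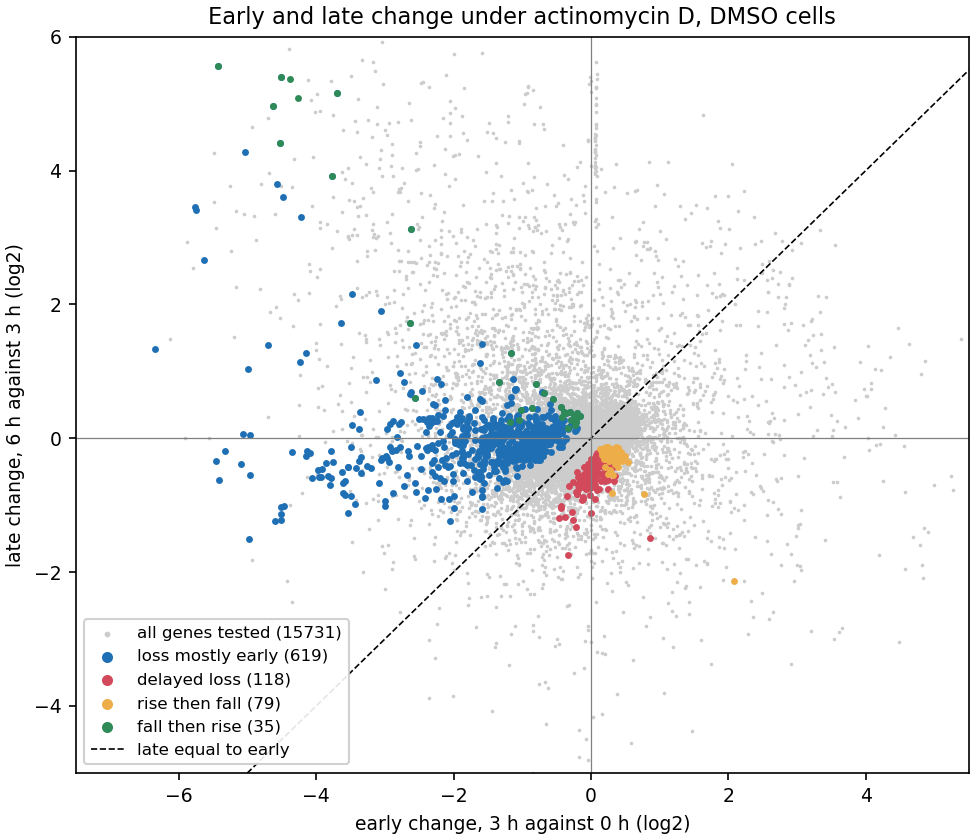
Early change (x axis, 3 h against 0 h, log2) and late change (y axis, 6 h against 3 h, log2) of each gene tested, with 4 of the patterns coloured and the dashed line where both are equal. Genes of early loss spread to the left near a late change of 0, while delayed loss and rise then fall lie close to the centre below 0; 33 of the 35 genes of fall then rise also belong to early loss, and 8 genes lie outside the axes.

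Scaling decides how the patterns read. With library sizes set by the ERCC spike-ins in place of TMM, the median gene fell by 0.54 in the early and by 0.33 in the late interval, 501 genes showed loss mostly early, and 496 of these were among the 619 above. Of the 619, 303 then fell late as well, against 94 with TMM, and their median late change was −0.42, so the near halt after 3 h is relative to the typical gene. Delayed loss was then called in 3 genes and rise then fall in 0, while 3937 genes fell in both intervals with no called difference. Of the 35 genes of fall then rise 10 kept that pattern, and their median late change was 0.09 in place of 0.47. The labels used here do not say when the spike-ins were added. Late values with ERCC scaling average over Kelly of 3 days, where the spike-in share fell from 3 to 6 h, and the other combinations, where it rose. The counts of line and duration differences with ERCC scaling given below include these unlike shifts. Most calls of early loss were thus made under both scalings, while most calls of the patterns of delayed loss, rise then fall and fall then rise were made only relative to the typical transcript.

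Among the gene lists, the replicative histone genes, which supply histones in S phase, had the most negative median early change. All 58 tested fell from 0 to 3 h, with a median early change of −3.77 against −0.02 over all genes. From 3 to 6 h 22 of them fell again and 0 rose, with a median of −0.53. In 50 of the 58 late minus early was above 0 and in none below 0, and all 50 were genes of early loss. The genes lie in the histone clusters, 47 on chromosome 6 between 25726777 and 27893843 and 11 on chromosome 1 between 149782689 and 149888013 (GRCh38).

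H1-5 encodes a linker histone. Its level was 640.5 to 1586 CPM at 0 h (median 1073), 16.9 to 33.2 at 3 h (median 26.1) and 8.01 to 20.5 at 6 h (median 16.3). No 3 h library reached the lowest 0 h library, whereas the 3 h and 6 h libraries overlapped. The early change was −5.42 ± 0.18 (SE) and the late change −0.63 ± 0.17, and late minus early was 4.79 ± 0.31 (adjusted p = 3.49e-13). H2AC16, a core histone H2A gene, went from 106 to 282 CPM (median 176) at 0 h to 3.10 to 7.59 (median 5.84) at 3 h and 4.26 to 7.33 (median 5.43) at 6 h. All of its measured loss lay before 3 h, with a late change of 0.07 ± 0.17. H4C3, a histone H4 gene, lost least, with an early change of −1.25 and medians of 167, 70.3 and 44.9 CPM. H3C8 was at or under 0.20 CPM in every Kelly library, so its value of 4.71 describes NGP, where it fell from at least 292 CPM to at most 15.3. Near-identical copies make the split of reads between single histone genes uncertain.

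Replicative histone mRNAs are known to end in a short stem-loop in place of a poly(A) tail, and these libraries were poly(A)-selected. Which end form was counted was not tested. Its letters were read from the 3′ UTRs of the 58 genes in canonical GENCODE release 44 transcripts, as the 16 bases with paired ends of 6 that most genes held, with N where genes differed. This gave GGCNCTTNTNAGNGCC, which all 58 hold by construction. Searched on the sense strand only, it was in 60 of 15267 genes with such a UTR (0.393%). Outside the list these were H1-6 and H2AX, both histone genes, and it was in 0 of the 553 other genes of early loss. The exons counted in the deposited files did not reach 28 of the 58 sites. One site of each histone class shows how alike the ends are, with the 16 letters of the match in capitals and 5 bases on each side.
H1-5, chr6:27866792-27866817, minus strand: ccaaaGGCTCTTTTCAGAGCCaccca
H2AC16, chr6:27865773-27865798, plus strand: acaacGGCTCTTTTCAGAGCCaccta
H2BC11, chr6:27132316-27132341, minus strand: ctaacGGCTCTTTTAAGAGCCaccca
H3C12, chr6:27890315-27890340, minus strand: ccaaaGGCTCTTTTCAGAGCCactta
H4C3, chr6:26104312-26104337, plus strand: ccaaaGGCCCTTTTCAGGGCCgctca
The letters of H1-5, H2AC16 and H3C12 were shared by 35 sites, those of H2BC11 by 7 and those of H4C3 by another 7. H4C3 holds the same kind of site as the genes of steepest loss, and the match is a description of the letters, not of a cause.

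Regulators known for short mRNA half-lives also lost most early. Of 42 short-lived regulators tested, 30 fell and 1 rose from 0 to 3 h, with a median early change of −1.89. From 3 to 6 h 10 fell and 4 rose, with a median of −0.22, and late minus early was above 0 in 20 and below 0 in none. JUN, a subunit of the AP-1 transcription factor, stood at 41.3 to 98.8 CPM (median 59.7) at 0 h. It was at 6.13 to 18.9 (median 13.4) at 3 h and 7.76 to 17.8 (median 11.7) at 6 h. The libraries of 3 and 6 h overlapped and both lay below those of 0 h. The early change of JUN was −2.32 ± 0.18, the late change −0.10 ± 0.18, and late minus early 2.22 ± 0.31 (adjusted p = 9.05e-06). IER5, SPRY2 and DUSP6, of which the last 2 restrain growth factor signalling, had late minus early values of 2.21, 2.84 and 3.49. MCL1, an inhibitor of apoptosis, fell from a median of 169 to 71.5 and then 59.2 CPM.

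MYCN, the amplified oncogene of both lines, belonged to the genes of early loss. Its level was 4336 to 8581 CPM (median 5540) at 0 h, 685.6 to 1636 (median 864) at 3 h and 436.2 to 895.4 (median 582) at 6 h. All 3 h libraries lay below all 0 h libraries, and in each of the 4 combinations of line and duration both 6 h libraries lay below both 3 h libraries. The early change was −2.56 ± 0.09 and the late change −0.67 ± 0.08, so that MYCN went on falling. Late minus early was 1.89 ± 0.15 (adjusted p = 9.13e-11).

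Transcription factors that mark the adrenergic state of neuroblastoma fell as well. All 17 tested fell from 0 to 3 h (median −1.43) and 12 of them fell again from 3 to 6 h (median −0.35). In 11 late minus early was above 0, and in none below 0. INSM2 had no called late change with TMM scaling. It stood at 170.5 to 517 CPM (median 336) at 0 h, 37.9 to 122.5 (median 64.0) at 3 h and 30.9 to 117.3 (median 64.6) at 6 h, with changes of −2.23 ± 0.07 and −0.08 ± 0.06. With ERCC scaling its late change was −0.45 (adjusted p = 0.0018), so that it went on falling there. KLF7 changed by −1.46 and then 0.07. PHOX2A, a homeodomain factor of sympathetic neurons, fell in both intervals, with changes of −1.24 and −1.39. GATA3 and SOX4 had late minus early values of 1.22 and 1.00.

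Among 21 genes of the ID, HES and Notch families 8 fell early and 2 late, and late minus early was above 0 in 2, the differentiation inhibitors ID2 (2.38 ± 0.46) and ID3 (2.42 ± 0.57). Of 25 p53 target genes 11 fell and 2 rose early, and 2 had late minus early above 0. These were AEN, a nuclease, with medians of 83.1, 22.5 and 19.2 CPM, and BTG2, an antiproliferative factor, with 37.1, 7.02 and 8.00 CPM. Of 24 cholesterol synthesis and uptake genes 3 fell and 6 rose early. INSIG1, a brake on sterol synthesis, had a late minus early of 0.84 ± 0.26. Without the 2 NGP libraries of 6 days and 6 h the value for INSIG1 was 0.43 and no longer called.

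The zinc finger genes named ZNF formed the largest group by number. Of 483 tested, 283 fell and 9 rose from 0 to 3 h (median −0.77), and 37 fell and 7 rose from 3 to 6 h (median −0.07). Values of late minus early were called above 0 in 94 and below 0 in 2, and 92 of the 619 genes of early loss belonged to this family. Many encode DNA-binding repressors. ZNF12 went from 36.5 to 57.2 CPM (median 47.1) at 0 h to 11.6 to 19.6 (median 15.4) at 3 h and 13.9 to 27.1 (median 19.0) at 6 h. All its 3 h libraries lay below its 0 h libraries, and its 6 h libraries overlapped those of 3 h. ZNF574, with changes of −2.96 and 0.13, and ZNF367, with −1.96 and 0.32, had no called late change either. With ERCC scaling the late median of the ZNF genes was −0.44, and 167 of them fell late in place of 37.

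**Figure D2:**
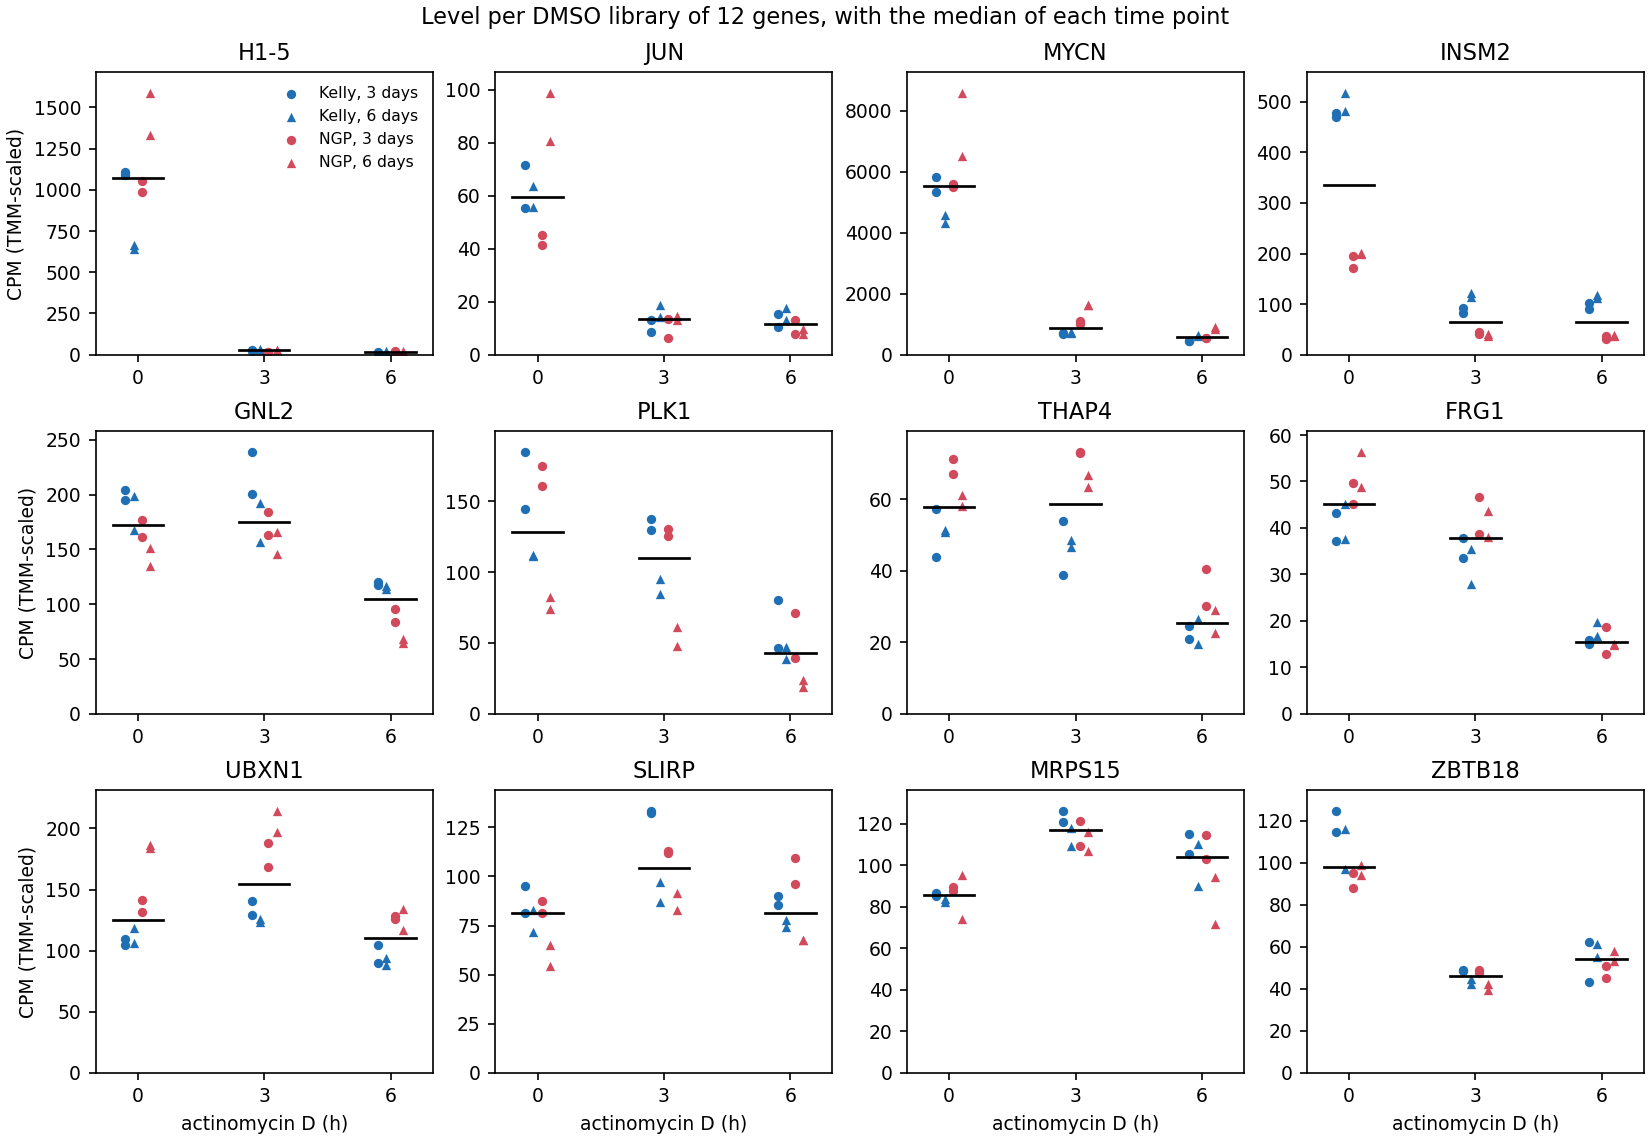
Level in CPM (y axis, linear from 0, TMM-scaled) against hours of actinomycin D (x axis) for 12 genes, 1 point per DMSO library, coloured by line and shaped by duration, with a bar at the median of 8 libraries. The top row shows early loss, the middle row delayed loss, and the bottom row 3 genes of rise then fall and ZBTB18, which fell and then rose.

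The early losses were not all losses to the detection floor. Of the 619 genes, 382 kept a mean of at least 10 CPM at 3 h, and these had medians of −0.98 early and −0.10 late, with 85 falling and 19 rising late. A mean of 1 to 10 CPM at 3 h was left in 207 genes and under 1 CPM in 30. In those 30 a further fall could hardly be seen: the median late change was 2.41, and 0 fell. HPS6, a lysosome biogenesis gene, is such a case, with 0 to 1.25 CPM at 3 h and 0 to 5.46 at 6 h. Its late minus early, 5.37 ± 1.07, was the largest among the genes named for this pattern by the rule given below.

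Genes of early loss differed from all genes in structure as well. A single exon made up 15.2% of their canonical transcripts against 2.78% of all genes tested, and 7.57% without the replicative histones. The median number of exons was 4 (5 without the histones) against 9. The AU-rich pentamer ATTTA, sense strand, was in the 3′ UTR of 81.8% of the non-histone members and of 71.0% of all genes. Their UTRs were longer, with a median of 1744 against 1273 bases, and per kilobase of UTR the motif count was 2.19 against 2.26. Part of this was shared by the 645 genes that fell in both intervals with no called difference. There 78.2% held ATTTA and the median UTR had 1395 bases, while 5.14% had a single exon and the median number of exons was 7.5. These shares are descriptions and were not tested.

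Genes that fell in both intervals with no called difference included RGS16, an inhibitor of G protein signalling, with early and late changes of −2.58 ± 0.33 and −1.75 ± 0.37 and a late minus early of 0.82 that was not called (adjusted p = 0.472). SAC3D1 changed by −1.52 and then −2.36. At 6 h RGS16 was at 0 to 3.38 CPM and SAC3D1 at 0 to 5.14, so both late changes reach the detection floor. In NGP of 3 days RGS16 was at only 4.98 and 7.20 CPM at 0 h. Some genes of early loss rose again relative to the typical gene. ZBTB18, a transcriptional repressor of neuronal development, was at 88.1 to 124.5 CPM (median 98.2) at 0 h, 39.5 to 49.1 (median 46.2) at 3 h and 43.4 to 62.5 (median 54.3) at 6 h. Its late change of 0.24 ± 0.08 passed the test (adjusted p = 0.0349), although its 3 h and 6 h libraries overlapped. CRY2, a circadian repressor, changed by −1.02 and 0.43. With ERCC scaling the late changes of ZBTB18 and CRY2 were −0.14 and 0.06, and neither was called.

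Delayed loss was smaller in size. GNL2, a nucleolar GTPase of ribosome assembly, stood at 135 to 204 CPM (median 172) at 0 h, 146 to 239 (median 175) at 3 h and 64.5 to 120 (median 105) at 6 h. The 0 h and 3 h libraries overlapped, and all 6 h libraries lay below all 3 h libraries. Its early change was 0.06 ± 0.07, its late change −0.91 ± 0.07, and late minus early −0.97 ± 0.12 (adjusted p = 7.12e-07). THAP4 held medians of 57.8 and 58.8 CPM and then 25.5, with changes of −0.00 and −1.12. With ERCC scaling GNL2 and THAP4 kept a late minus early of −0.81 (adjusted p = 0.0088) and −0.96 (adjusted p = 0.00767), and C12orf10 one of −0.98 (adjusted p = 0.0156), the only named genes below 0 that passed there. FRG1, a splicing-associated protein, was at 27.9 to 46.6 CPM at 3 h and 12.8 to 19.7 at 6 h, with a late change of −1.22 ± 0.11. RAB3IL1 changed by −1.75 late, but its late minus early in the STM2457 libraries was 0.40.

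Of 30 genes of G2 and mitosis 15 rose and 3 fell early (median 0.20), 1 rose and 11 fell late (median −0.10), and late minus early was below 0 in 13 and above 0 in none. PLK1, a kinase that drives mitotic entry, fell in both intervals and more in the late one. It went from 73.7 to 184.7 CPM (median 128) at 0 h to 48.1 to 137.9 (median 110) at 3 h and 19.1 to 80.6 (median 43.0) at 6 h. The time points overlapped across the lines, and within each of the 4 combinations both 6 h libraries were below both 3 h libraries. PLK1 changed by −0.38 ± 0.10 and then −1.17 ± 0.10, with a late minus early of −0.79 ± 0.17 (adjusted p = 0.00238). CCNB1, the mitotic cyclin B1, changed by −0.20 and −0.84, and CDC20, an activator of the anaphase-promoting complex, by 0.06 and −0.59. AURKB, the kinase of the chromosomal passenger complex, changed by 0.08 and −0.45. CKS2 and CDKN3, a cofactor and a phosphatase of cyclin-dependent kinases, had late minus early values of −1.12 ± 0.26 and −1.01 ± 0.24. Other members only stopped rising: TPX2, a spindle factor, changed by 0.32 and −0.07.

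Of 36 DNA replication genes 19 rose and 5 fell early and 3 rose and 9 fell late. The shares over all genes were 19.4% and 17.3% early and 7.90% and 8.78% late. Among the 36 late minus early was below 0 in 11, with TYMS, thymidylate synthase, at −0.53 and POLE, a replicative polymerase, at −0.39. The exception above 0 was E2F2, a transcription factor of S phase genes, which fell from a median of 60.2 to 19.2 and 18.0 CPM.

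Among genes for the mitochondrial ribosome more fell late than early. Of 77 nuclear genes for its proteins 17 rose and 11 fell early (median 0.07), and 3 rose and 30 fell late (median −0.23). The early counts are near the shares over all genes, 19.4% higher and 17.3% lower. Late, 7.90% of all genes rose and 8.78% fell. In 12 late minus early was below 0, and in none above 0. MRPL9, with medians of 64.6, 67.0 and 42.3 CPM, and MRPL16, with 34.9, 35.2 and 20.5, showed delayed loss. MRPL18 changed by −1.11 late. MRPS15 rose and then fell: it stood at 74.1 to 95.4 CPM (median 85.7) at 0 h, 107 to 125.9 (median 117) at 3 h and 71.5 to 115 (median 104) at 6 h. All 3 h libraries lay above all 0 h libraries, and the 6 h libraries overlapped those of 3 h. Its changes were 0.44 ± 0.07 and −0.21 ± 0.07. MRPL21 changed by 0.35 and −0.23.

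Other genes of rise then fall moved by a similar amount. UBXN1, a regulator of protein turnover, was at 104.9 to 186.2 CPM (median 125) at 0 h, 124 to 214 (median 154) at 3 h and 88.4 to 134.4 (median 111) at 6 h. The time points overlapped over all libraries, yet in each of the 4 combinations both 3 h libraries were above both 0 h libraries and above both 6 h libraries. Its changes were 0.25 ± 0.06 and −0.53 ± 0.06, with a late minus early of −0.78 ± 0.11 (adjusted p = 3.63e-06). SLIRP, which binds mitochondrial mRNAs, changed by 0.45 and −0.34, HAX1, an antiapoptotic protein, by 0.49 and −0.27, and SDHB, a subunit of respiratory complex II, by 0.42 and −0.20. POLR2A, the largest subunit of RNA polymerase II, changed by 0.24 ± 0.04 and −0.14 ± 0.04, and HSPA4, a chaperone, by 0.23 and −0.14.

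Genes of delayed loss and of rise then fall had short 3′ UTRs, with medians of 508 and 463 bases against 1273 over all genes. ATTTA was in the 3′ UTR of 52.1% and 48.7% of them against 71.0%, and 11 and 13 exons were the medians against 9. These comparisons describe the members and were not tested.

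The abundant long-lived mRNAs gained most of their relative level early. Of 86 cytosolic ribosomal protein genes 77 rose and 4 fell early (median 0.53), and 71 rose and none fell late (median 0.26). Late minus early was below 0 in 60 and above 0 in 2. RPL5 stood at 1439 to 2345 CPM (median 1819) at 0 h, 2073 to 3421 (median 2625) at 3 h and 2326 to 3373 (median 2680) at 6 h, with changes of 0.52 ± 0.03 and 0.06 ± 0.03. Reads of ribosomal protein genes may be shared with near-identical copies. GAPDH, the glycolytic enzyme, rose in both intervals, by 0.61 ± 0.03 and 0.37 ± 0.03, and 15 of 17 glycolysis genes rose early and 12 late. The glucose transporter SLC2A1 fell late, the only one of the 17 that did, with medians of 76.0, 67.2 and 41.3 CPM. Of 78 nuclear genes of oxidative phosphorylation 61 rose early and 36 late (medians 0.44 and 0.22), and late minus early was below 0 in 15, ATP5F1B among them (−0.38). Of 23 heat shock chaperones 15 rose early and 6 late, and late minus early was below 0 in 9. With ERCC scaling the changes of GAPDH were 0.08 and −0.00 and those of RPL5 −0.01 and −0.31, and neither late minus early was called.

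**Figure D3:**
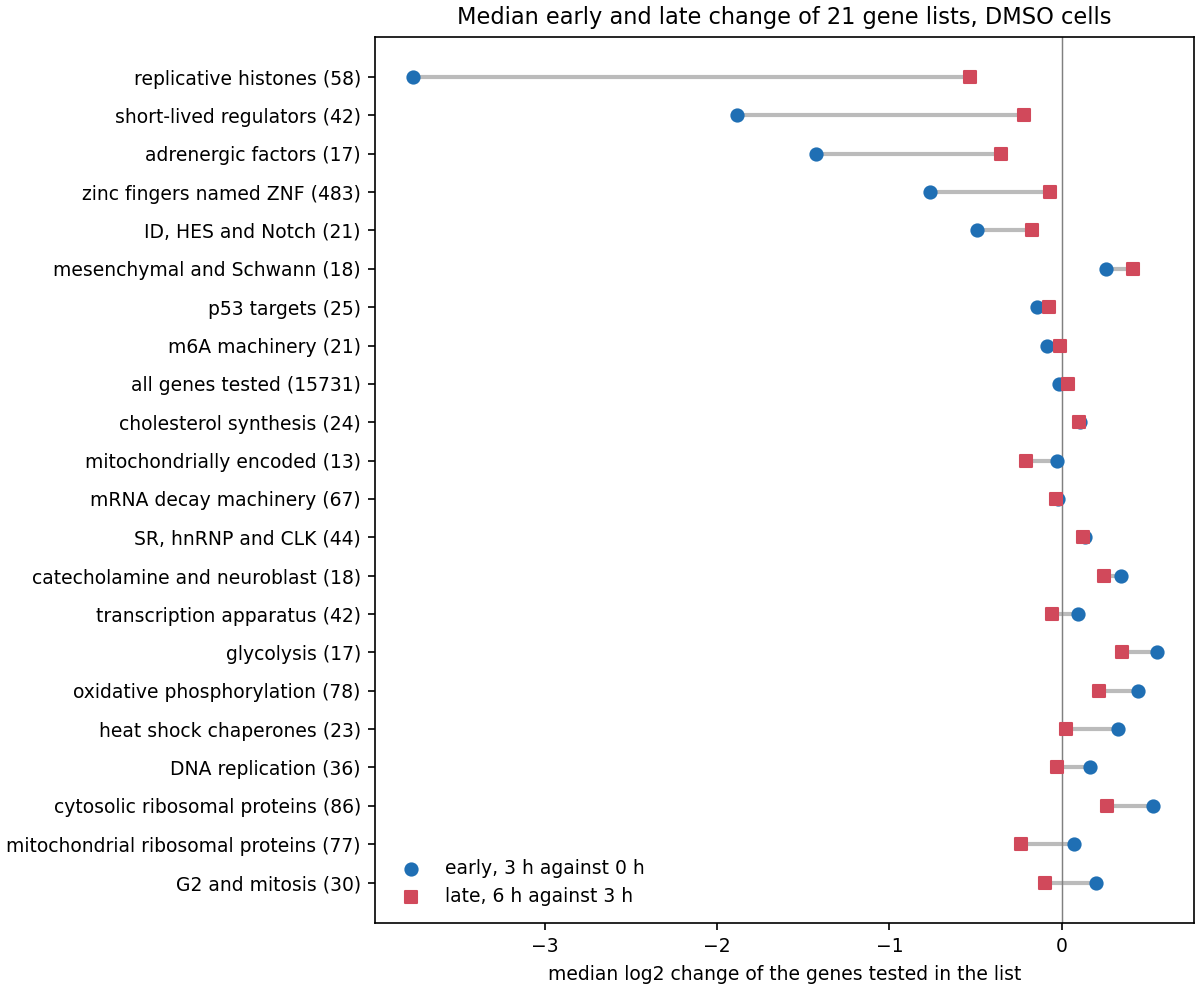
Median log2 change (x axis) of 21 gene lists and of all genes tested (y axis, number of genes tested in brackets), early as circles and late as squares, ordered by the median of late minus early. Replicative histones, short-lived regulators, adrenergic factors and ZNF genes have an early median far below their late one, while mitosis and ribosomal protein lists have a late median below their early one.

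The machinery of RNA itself was split. Of 67 mRNA decay genes 19 rose and 18 fell early and 9 rose and 9 fell late. Over all genes 19.4% rose and 17.3% fell early, and 7.90% rose and 8.78% fell late. TNRC6A, a scaffold of microRNA silencing, lost its share early (129.8 to 155 CPM at 0 h, 77.0 to 98.2 at 3 h and 63.8 to 102.1 at 6 h). EDC4, a scaffold of mRNA decapping, changed by 0.48 and −0.14. Of 44 SR, hnRNP and CLK splicing genes 22 rose early and 16 late. SRRM2, a splicing scaffold, rose in both intervals without overlap of the time points, from a median of 1212 to 1700 and 1928 CPM. CLK1, a kinase of SR proteins, changed by −1.02 and then −0.22. Of 42 genes of the transcription apparatus 17 rose and 11 fell early (median 0.09) and 4 rose and 8 fell late (median −0.06). In 3 late minus early was above 0 and in 6 below 0. BRD2, a reader of acetylated histones, was among those above 0, with changes of −0.97 ± 0.06 and −0.28 ± 0.06.

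Of 21 genes of m6A writing, reading and erasing 5 rose and 8 fell early and 4 rose and 6 fell late. The shares over all genes were 19.4% and 17.3% early and 7.90% and 8.78% late. YTHDF2, a reader that hastens decay of m6A-marked mRNA, fell from a median of 146 to 50.6 and 31.8 CPM, with changes of −1.58 ± 0.10 and −0.77 ± 0.10. RBM15 and WTAP, members of the writer complex, had early changes of −0.51 and −1.08. METTL3, its catalytic subunit, was at 44.9 to 56.98 CPM at 0 h, 44.5 to 64.1 at 3 h and 44.9 to 69.3 at 6 h. These ranges overlapped, and no call was made for either of its changes, 0.14 ± 0.09 and −0.03 ± 0.09.

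Of the 13 mRNAs encoded in mitochondrial DNA 1 rose and 6 fell early (median −0.03) and 1 rose and 6 fell late (median −0.21), and late minus early was above 0 in 2, MT-ND5 (0.59 ± 0.13) and MT-ND3 (0.54 ± 0.12). Both encode subunits of respiratory complex I. Once trends on gene length and GC content were removed, 7 of the 13 rose and 3 fell early (median 0.30), 1 rose and 4 fell late, late minus early was above 0 in 1 and below 0 in 5, and the value for MT-ND3 was −0.30. The directions within this list thus rest on that choice.

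With TMM scaling most genes called for late minus early in Kelly or in NGP had the same sign in the other line. Over all 15731 genes, called or not, 1791 were above 0 and 2448 below 0 in all 4 combinations of line and duration. Of 551 genes called above 0 in Kelly 492 (89.3%) had a value above 0 in NGP and 185 were called there. Of 792 called below 0 in Kelly 751 (94.8%) were below 0 in NGP and 276 were called. No gene was called with opposite signs in the lines. In Kelly 8.54% of genes were called for late minus early (3.50% above 0 and 5.03% below 0) and in NGP 5.52% (2.24% and 3.28%).

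Late minus early differed between the lines in 51 genes (0.324% of those tested, 0.146% higher in NGP and 0.178% lower) by a test of the difference itself. With ERCC scaling 1419 genes differed, and with DESeq2 167. In 36 of the 51 every group had a mean of at least 1 CPM. The rest were near 0 in some group, where fitted values are large and poorly fixed. MYCN had 2.39 in Kelly and 1.38 in NGP, a difference of −1.01 (adjusted p = 3.2e-07). In Kelly the early change was larger and the late one smaller than in NGP, with changes of −2.99 and −0.65 at 3 days and −2.63 and −0.19 at 6 days. In NGP they were −2.40 and −0.93 at 3 days and −2.21 and −0.91 at 6 days.

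MT-ND1, a complex I subunit, had the smallest p of the line difference. It was at 4262 to 4781 CPM at 0 h, 916.3 to 994.3 at 3 h and 496.0 to 520.6 at 6 h in Kelly of 3 days. In NGP of 3 days it was at 3139 to 3405, 2554 to 2760 and 1701 to 1883 CPM. Early change was −2.03 in Kelly and −0.45 in NGP, late change −0.88 and −0.52, and the difference in late minus early −1.23 (adjusted p = 2.14e-11). MT-ND1 was the only one of the 13 mitochondrial mRNAs called for this difference. HAND2, an adrenergic factor, changed by −0.61 and −0.10 in Kelly of 3 days and by −1.26 and −0.50 in NGP of 3 days (difference 0.56, adjusted p = 0.00177).

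Some of these differences rest on the NGP libraries of 6 days and 6 h. SLC7A11, a cystine transporter, GARS1, a tRNA synthetase, and DDR2 had late changes between −0.14 and 0.47 in the other 3 combinations of line and duration. In NGP of 6 days their late changes were −2.61, −1.26 and −0.999. Within the 3 day libraries alone 13 genes differed between the lines in place of 51, with fewer libraries in that fit, and the line difference was not refitted without only those 2 libraries.

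Between the durations 16 genes differed (0.102%, 0.0636% higher at 6 days and 0.0381% lower), and leaving out 1 library moved this count to between 5 and 31. With ERCC scaling 773 genes differed, and with DESeq2 106. The 3 named for the smallest p were DDR2, a collagen receptor (−0.85), HSPA5, the main chaperone of the endoplasmic reticulum (0.99), and ATF4, the transcription factor of the amino acid response (1.03). ATF4 in NGP of 6 days fell from 480.6 to 513.5 CPM at 0 h to 126.7 to 149.9 at 3 h and stood at 228.5 to 252.6 at 6 h, and in Kelly of 6 days its changes were −0.15 and 0.07. At 3 days they were −0.58 and −0.25 in Kelly and −0.61 and −0.13 in NGP. The difference of ATF4 between durations, like that between lines, thus rests on NGP of 6 days. There its early change, from the 0 h and 3 h libraries, was −1.84. Its late change, to the 6 h libraries that stood apart, was 0.80. Late minus early of DDR2 over all lines and durations was −0.36 with those 2 libraries and −0.12 without them. HSPA5 fell from 254.9 to 270.2 CPM at 3 h to 126.3 and 126.6 at 6 h in NGP of 3 days, and rose from 122.0 to 128.9 to 160.1 to 180.6 in NGP of 6 days. That rise of HSPA5 ends in the 2 libraries that stood apart. In Kelly its late changes were −0.17 at 3 days and −0.00 at 6 days.

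**Figure D4:**
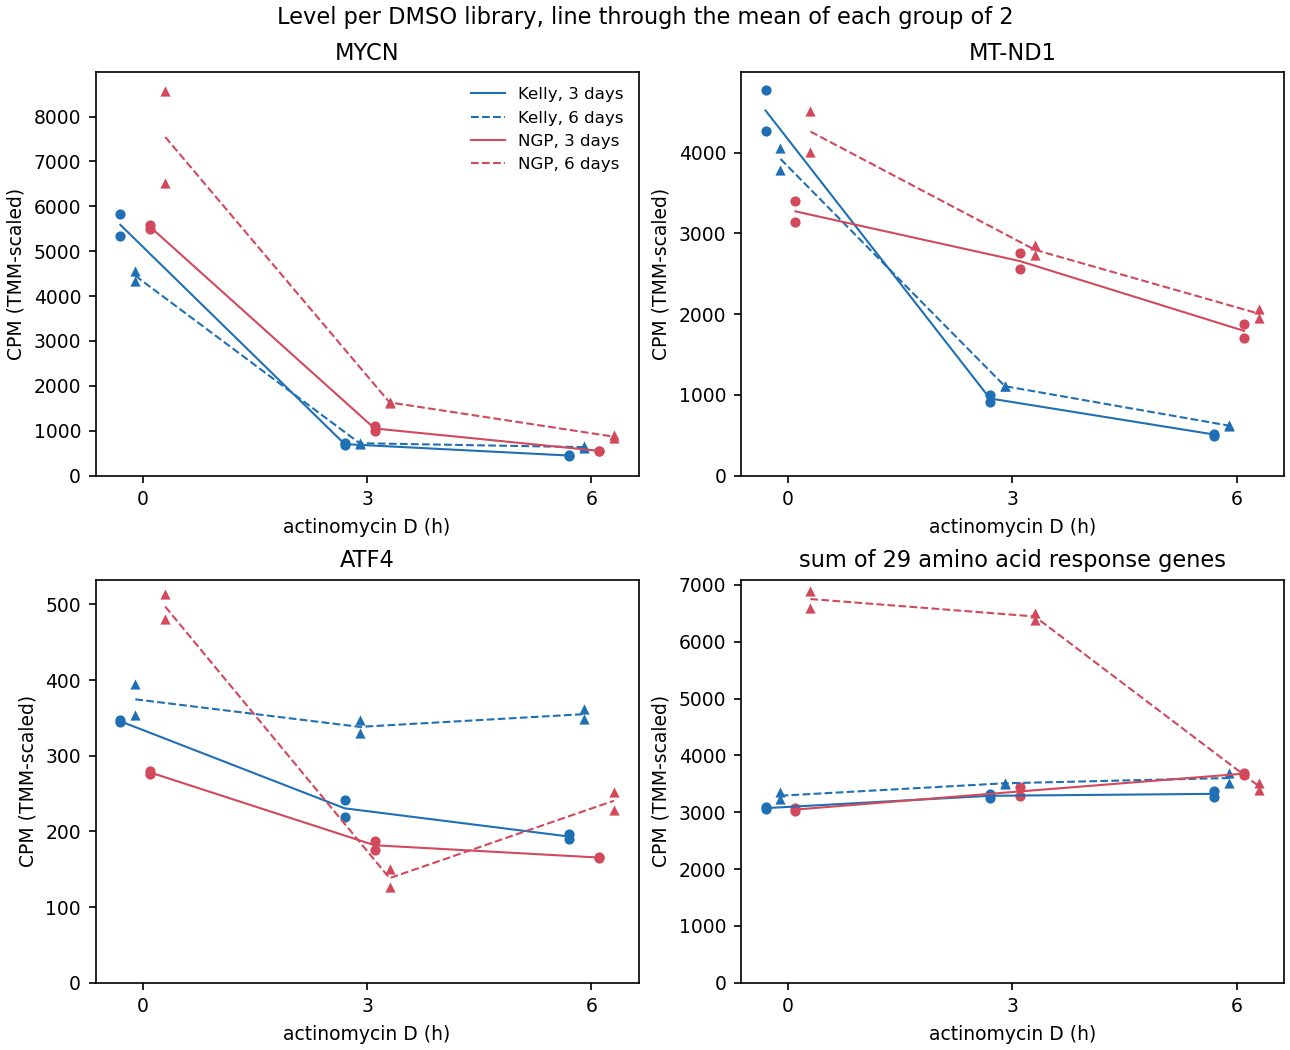
Level in CPM (y axis, linear from 0) against hours of actinomycin D (x axis) for MYCN, MT-ND1, ATF4 and the sum of 29 amino acid response genes, 1 point per DMSO library and a line through the mean of each pair. MT-ND1 falls most before 3 h in Kelly and steadily in NGP, and the summed list drops only in NGP of 6 days between 3 and 6 h.

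The STM2457 libraries, whose values did not enter the calls of the patterns, gave the same signs for most of them. There 34.7% of genes were called early (17.8% higher, 16.9% lower), 15.4% late (7.29% higher, 8.15% lower) and 9.17% for late minus early (4.10% above 0, 5.07% below). Of 617 genes of early loss that could be tested 606 (98.2%) had late minus early above 0, and 375 were called. Of 118 genes of delayed loss 112 (94.9%) were below 0 and 52 called, and of 79 genes of rise then fall 77 (97.5%) were below 0 and 46 called. Over all genes 71.0% had the same sign. H1-5 had 4.80, MYCN 1.92, GNL2 −0.79 and UBXN1 −0.87, against 4.79, 1.89, −0.97 and −0.78 in DMSO. Some of the largest DMSO values did not recur. GBP3 had 0.43 and POU2F3 −0.17, against 8.86 and 8.37 in DMSO, whereas BMP6 had 8.21 against 8.95. Medians were closer to 0 than in DMSO, 0.88 against 1.22 for early loss and −0.38 against −0.55 for delayed loss. The genes were chosen in DMSO for values far from 0, and the difference between the treatments was not tested.

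**Figure D5:**
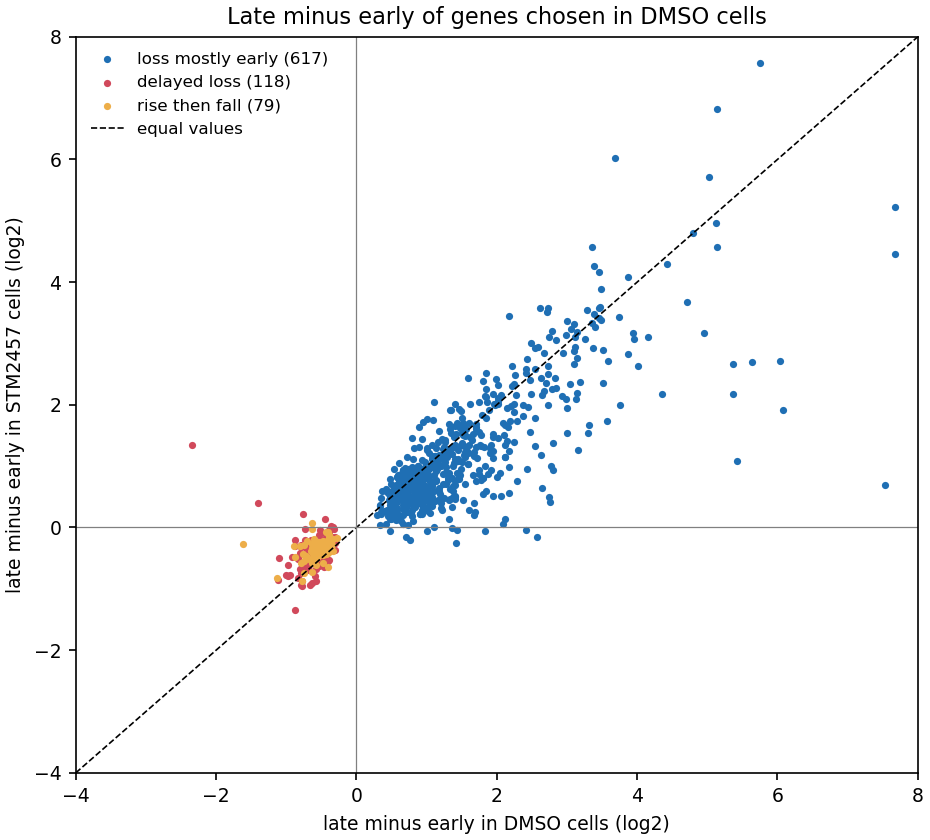
Late minus early (log2) of genes of the patterns in the DMSO libraries that chose them (x axis) and in the STM2457 libraries (y axis). Points are coloured by pattern, with the dashed line of equal values. Any gene with a value outside the axes is not drawn. Most points lie in the quadrants where both values have the same sign.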

How the data were processed

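The authors deposited raw counts of read pairs, summed over the exons of each gene name with featureCounts 1.5.3, on GENCODE release 33 protein-coding genes (19923 names) and 92 ERCC sequences, per the file headers. Trimmomatic 0.36, HISAT2 2.1.0 and the build GRCh38 are given per the submitters' processing notes. No option for strand or multi-mapping is given in the sources used here, and 18 gene names lie on several chromosomes.

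The 24 DMSO libraries were fitted in R 4.3.3 using edgeR 4.0.16 (filterByExpr by group, minimum count 10, minimum total 15; TMM; quasi-likelihood test, Benjamini-Hochberg adjustment, threshold 0.05) with 4 line and duration levels plus time. Values by line and duration, and their differences, came from a fit of 12 group means. SEs are the absolute change divided by the square root of F. STM2457 libraries were fitted separately. The model was run on simulated data in which few genes changed, alike in all lines and durations. Of genes with a simulated 4-fold early loss 68% were called for late minus early, of 2-fold ones 48%. There 115 genes were called, against 1521 in the data, so these shares do not give the recovery in the data.

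Groups came from the titles. Gene models for UTRs and exon numbers are GENCODE release 44; coordinates of genes are those of the files. Same-numbered replicates did not deviate together (correlations −0.028 to 0.088 within a line and duration, −0.070 to 0.114 between other groups), and replicates differed beyond counting noise.

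Named genes were, for each of 3 patterns, the 8 largest late minus early values at 10 CPM or more with 1 sign in all 4 combinations, 4 for each of 2 further patterns, up to 3 called members per list by p, the 3 of smallest p per difference, and MYCN, JUN, METTL3 and GAPDH. Other list members named were chosen after their values were seen. Members, lists and tests were chosen with earlier results of these data known. Some named genes are not reported here.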

Additional observations from a re-analysis of the deposited data

Results flagged for a closer look

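The change between intervals differed between the lines, by a test of the difference, in 51 genes. Among the named genes these were MYCN (−1.01, NGP minus Kelly), MT-ND1 (−1.23), ATF4 (1.29) and DDR2 (−0.59). For ATF4 it is carried by NGP of 6 days, with changes of −1.84 and 0.80, while at 3 days the changes were −0.61 and −0.13 in NGP and −0.58 and −0.25 in Kelly. Whether the NGP libraries of 6 days and 6 h came from the same culture as those of 0 and 3 h is not given in the labels, and a mix-up of samples was not tested. Between 6 and 3 days it differed in 16 genes, ATF4 (1.03), DDR2 (−0.85) and HSPA5 (0.99) among the named ones. DDR2 without the 2 NGP libraries of 6 days and 6 h had a late minus early of −0.12 over the remaining libraries, against −0.36 with them, and neither value was called.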

How the results depend on the processing

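Late minus early of MYCN, JUN, GNL2, PLK1 and UBXN1 kept its direction under every alternative run, and its call except for PLK1 with ERCC scaling and within either duration and UBXN1 with ERCC scaling. With ERCC scaling the genes called were 33 higher and 7637 lower early, 116 and 5289 late, and 501 and 5 for late minus early, with 3 of delayed loss, 0 of rise then fall, 3937 of steady loss, 1419 for the line and 773 for the duration difference, and 4699 late and 1009 for late minus early in STM2457. By library size alone they were 1788 higher early, 657 higher late, 480 below 0 for late minus early, 1102 of steady loss and 9 for duration. Limma-voom gave 190 of delayed loss, 57 of fall then rise, 21 for line and 10 for duration. The fit of 12 group means gave 1352 below 0, 204 of delayed loss, 137 of rise then fall and 69 of fall then rise. DESeq2 gave 167 for line and 106 for duration, no filter 128 and 89, and a minimum count of 50 gave 6 for duration.

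Fewer libraries gave fewer calls. Kelly alone gave 475 higher and 849 lower late, 415 and 569 for late minus early, 409 of early loss, 58 delayed, 35 of rise then fall, 16 of fall then rise and 407 of steady loss. NGP alone gave 347 and 187 for late minus early, then 344, 55, 22 and 18. The 3 day libraries gave 634 and 810 late, 250 and 383 for late minus early, then 248, 42, 28, 5 and 365, and 13 for line. The 6 day libraries gave 1932 and 1659 early, 460 and 570 late, 160 and 119 for late minus early, then 158, 17, 16, 7 and 262. Without the Kelly 6 day libraries 510 were below 0 and 20 showed fall then rise.

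Leaving out 1 library gave 525 to 678 genes above 0 and 709 to 934 below 0 for late minus early, 518 to 667 of early loss, 88 to 127 delayed, 57 to 82 of rise then fall, 23 to 37 of fall then rise (23 without Kelly 3 day 3 h replicate 1), 33 to 63 for line (33 without either NGP 6 day 3 h replicate) and 5 to 31 for duration (5 without NGP 3 day 0 h replicate 2, 31 without Kelly 6 day 6 h replicate 1). INSIG1 lost its call in 14 of 24 such refits, RFXANK in 4, TPRKB in 3 and GPI in 1. Without both NGP libraries of 6 days and 6 h, early loss was called in 576 genes (515 of the 619), delayed loss in 125 (96 of the 118) and rise then fall in 70 (50 of the 79), and these 2 were chosen after seeing the data.

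With the replicate number as a block (replicate block), 575 genes were above 0 and 797 below 0, 20 showed fall then rise, 94 differed by line and 50 by duration, and of 89 named genes INSIG1 alone lost its call (0.84).

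Signs of late minus early that turned were those of RGS16 (−0.055 in NGP alone, −0.14 at 6 days), ATG101 (−0.27 by limma-voom, −0.34 at 3 days), MT-ND3 (−0.30 with trends on length and GC removed, with or without the block), MT-ND1 (−0.044 in NGP alone) and DDR2 (0.048 at 3 days). HSPA5 turned to −0.0201 by limma-voom, −0.0151 with those trends removed, −0.0165 with the replicate block as well, −0.0075 in NGP alone, −0.44 at 3 days, −0.16 without the NGP 6 day 6 h libraries, −0.0355 without Kelly at 6 days, and lay between −0.0563 and 0.138 over the leave-one-out refits. Of these 6 genes MT-ND3 was called as reported. The cause was not tested. Depth limits late losses of genes already under 1 CPM at 3 h.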
